A study of Mus musculus with 16 samples.

Results

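The response to transforming growth factor beta (TGF-beta) was measured in mouse cardiac fibroblasts that had been given an adenovirus carrying Cre recombinase. The comparison was between 8 of the study's 16 RNA sequencing libraries, 4 from Cre-virus cells with TGF-beta and 4 from Cre-virus cells without it. The fit behind the test took all 16, so the other libraries also entered its estimates of spread and of preparation differences. A shared replicate number marks a shared cell preparation, so each preparation gave 1 library with and 1 without TGF-beta. Of the 55414 genes in the deposited count table, 15285 had enough counts to be tested, and all of them entered the comparison. Preparations 1 and 4 were labelled male, and preparations 2 and 3 female.

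Both groups were heart fibroblasts at passage 2, starved of serum for 24 h, exposed to the Cre virus for 5 h and then kept in fresh medium for 48 h. Stimulation is recorded as lasting 48 h in both groups. The virus was meant to remove exon 2 of Has2, so the cells without TGF-beta carried the Cre virus too. The protocol states that the cells came from Has2fl/fl mice, whereas the genotype field gives wild type C57BL/6J, and the labels do not settle which holds. The protocol gives a dose of 20 ng/mL in 1 phrase for both TGF-beta and basic fibroblast growth factor (bFGF). If the cells without TGF-beta received bFGF and the others did not, removal of bFGF and addition of TGF-beta cannot be told apart in this comparison. The labels do not say how many hearts each preparation pooled, and the growth protocol plated 1 heart per flask.

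TGF-beta is a secreted dimer that is stored in the matrix in a latent form. Once released, it binds a pair of serine-threonine kinase receptors, which phosphorylate SMAD2 and SMAD3. These SMADs enter the nucleus with SMAD4 and act with other factors on many genes, including those of inhibitors that feed back on the pathway. In heart fibroblasts TGF-beta is known for driving the change to myofibroblasts, which build contractile actin bundles and secrete scar matrix. Has2 encodes a synthase of hyaluronan, a large glycosaminoglycan of that matrix.

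Library totals ran from 21.7 to 48.7 M counts. The first principal component of the 8 libraries held 58.5% of the variance and divided the treated from the untreated libraries. On the second component, with 21.4%, preparation 4 lay apart from the others. In preparation 4 the 10 most abundant genes took 7.23% and 6.88% of the counts without and with TGF-beta, against 10.3% to 11% in the other 6 libraries. Fibroblast markers were abundant in every library, and the levels of markers of other cells are given beside the results they touch. Levels below are reads per 1000000 counted (CPM) after scaling of library totals by edgeR's TMM factors. Differences are log2 values fitted over all genes with the preparation as a block, each with its standard error (SE). Mean levels carry the standard deviation (SD) over 4 libraries.

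Has2 itself (ENSMUSG00000022367), the target of the virus, stood at 14.9, 13.5, 16.6 and 13.9 CPM without TGF-beta and 12.4, 11, 25 and 17.4 CPM with it, in preparations 1 to 4. The groups overlapped, and the difference did not pass the test (0.088 ± 0.15, adjusted p = 0.649). Preparation 3 had the highest value in both groups. In GFP-virus cells, the control cells of the study, Has2 stood at 18.0, 15.3, 23.2 and 18.4 CPM without TGF-beta and at 15.3, 9.47, 21.9 and 20.7 CPM with it. Counts over the whole gene include reads from exons outside the targeted one, so these values do not measure the loss of exon 2.

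TGF-beta was followed by changes in 52.5% of the genes tested (8030 of 15285 at an adjusted p under 0.05, edgeR's quasi-likelihood test). Levels rose for 3856 genes (25.2%) and fell for 4174 (27.3%). Falls were the larger: the median log2 difference was 0.57 among the genes that rose and -0.80 among those that fell, against 0.013 over all genes. At least 2-fold rises were seen for 808 genes (5.29%) and at least 2-fold falls for 1669 (10.9%). At 16-fold or more, a log2 difference of 4, the counts were 50 and 75. All 4 preparations moved in the called direction for 7286 of the 8030 genes (90.7%). The 4 values of one group lay entirely above those of the other for 4327 genes (28.3%). Without the preparation as a block, 2134 genes rose (14%) and 2495 fell (16.3%). A fit of the 8 Cre-virus libraries alone, with the block, gave 2825 higher and 3360 lower of 14861 genes tested. Genes that rose at least 2-fold took 2.59% of all counts without TGF-beta and 8.47% with it. Those that fell at least 2-fold took 10.9% and 3.28%.

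**Figure D1:**
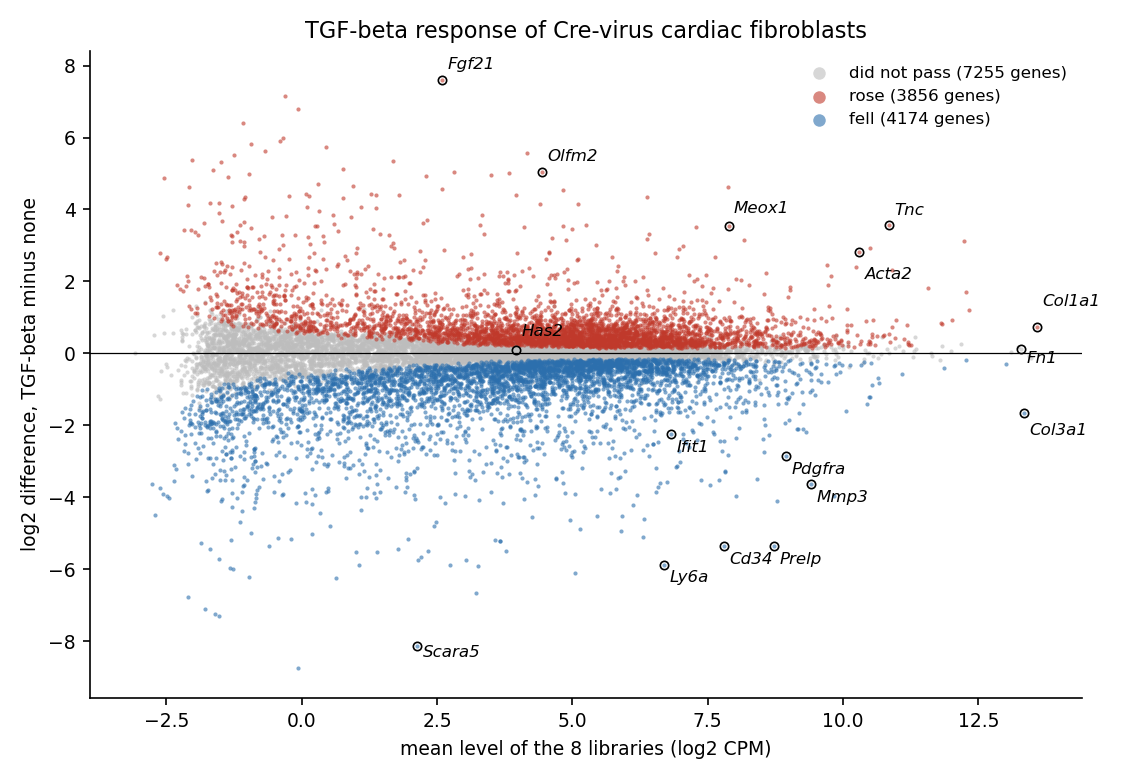
Log2 difference with TGF-beta against mean level for the 15285 genes tested in Cre-virus cells, with genes that rose in red, genes that fell in blue and genes that did not pass the test in grey. Points below -4 outnumber those above 4 (75 against 50), and the labelled genes are those described in the text.

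Genes of the contractile apparatus mostly rose. Of the 27 tested, 20 rose, 5 fell and 2 did not pass, where 25.2% of all genes rose and 27.3% fell, with a median log2 difference of 0.93 against 0.013 over all genes. Smooth muscle actin (Acta2), the defining filament of myofibroblasts, stood at 221, 318, 364 and 339 CPM without TGF-beta and 2695, 2404, 2176 and 1546 CPM with it in preparations 1 to 4. Every library with TGF-beta lay above every one without, and preparation 4 rose least (2.82 ± 0.24, adjusted p = 5.07e-07). Transgelin (Tagln), an actin-binding protein of smooth muscle, stood at 288, 335, 373 and 339 CPM without TGF-beta and 2822, 3040, 2163 and 2197 CPM with it. Again the groups did not overlap, and the values within each were close together (2.92 ± 0.14, adjusted p = 1.09e-09). Calponin (Cnn1), which binds actin and restrains myosin, stood at 1.93, 1.77, 3.31 and 2.14 CPM without TGF-beta and 75.6, 56.4, 57.8 and 28.6 CPM with it. It was low without TGF-beta and rose in all 4 preparations, least in preparation 4 (4.55 ± 0.32, adjusted p = 9.33e-08). Tropomyosin (Tpm1), which lies along the actin filament, stood at 357, 402, 388 and 394 CPM without TGF-beta and 2187, 2033, 2141 and 1816 CPM with it. Its groups did not overlap, and its SE was the smallest of these (2.40 ± 0.098, adjusted p = 8.63e-11). Skeletal actin (Acta1) rose 4.93 ± 0.27 from 0.282 ± 0.131 to 9.55 ± 3.48 CPM, and Tpm2 and Pdlim7, which encodes a protein that tethers partners to actin fibres, rose 1.57 ± 0.085 and 1.31 ± 0.088. Meox1, a homeobox factor named in heart fibroblast activation, stood at 29.2, 32.8, 29.9 and 62.5 CPM without TGF-beta and 426, 435, 343 and 536 CPM with it. It rose in all 4 preparations (3.55 ± 0.14, adjusted p = 1.21e-10). Members that fell included Cav1, the caveolar coat protein (-2.11 ± 0.17), and the actin organiser Synpo (-0.73 ± 0.11), whose call was lost without the block (adjusted p = 0.0709). Without the block 18 of the list rose and 1 fell, and 3 fell without preparation 2. The shares over all genes, 25.2% higher and 27.3% lower, apply to the list counts that follow as well. In whole cultures, a different number of cells of a type and a different amount of RNA per cell cannot be told apart, here or in the results that follow.

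The promoters of Acta2 and Tpm1 are shown because both genes rose in every preparation and both hold the letters of a site of the TEAD factors, the DNA-binding partners of YAP and TAZ. Each run is the 250 bases before the RefSeq transcription start in build GRCm38.p6, read along the gene, with the site GGAATG in capitals on either strand. Acta2 lies at chr19:34255374-34255623 (reverse strand) and Tpm1 at chr9:67049214-67049463 (reverse strand).
Acta2: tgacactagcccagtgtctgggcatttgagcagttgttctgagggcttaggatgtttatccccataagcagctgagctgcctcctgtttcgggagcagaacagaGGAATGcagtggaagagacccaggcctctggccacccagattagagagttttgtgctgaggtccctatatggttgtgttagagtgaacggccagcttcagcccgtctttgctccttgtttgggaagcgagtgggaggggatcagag
Tpm1: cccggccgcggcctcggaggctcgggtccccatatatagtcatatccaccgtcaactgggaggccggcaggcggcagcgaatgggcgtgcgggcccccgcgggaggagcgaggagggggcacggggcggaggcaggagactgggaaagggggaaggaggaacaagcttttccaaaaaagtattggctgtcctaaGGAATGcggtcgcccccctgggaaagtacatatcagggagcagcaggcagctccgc
The letters GGAATG, searched on both strands, occur in 13.0% of the 10764 tested genes that matched the RefSeq promoter table by symbol. They occur in 12.6% of all genes that rose, 14.4% of those that fell and 12.3% of those that did not pass. They occur in 9 of the 22 contractile genes found there, 6 of 16 that rose, 2 of 4 that fell and 1 of 2 that did not pass. In the list of YAP and TAZ targets the count was 10 of 20. That list also holds Yap1, Wwtr1 (the TAZ gene) and Tead3, all of which have the letters. A match in these windows is a description of the letters, not a sign that a factor bound there. The YAP and TAZ list split, with 11 of 28 higher and 7 lower (median 0.20), where 25.2% of all genes rose and 27.3% fell. Its lower members include Yap1 (-0.166) and Wwtr1 (-0.295), which encode the regulators themselves and are not targets. The stretch-induced gene Ankrd1 rose from 331 ± 112 to 1426 ± 184 CPM (2.15 ± 0.19, adjusted p = 5.87e-07), and the kinase gene Nuak2 rose 1.89 ± 0.17. Without the block, 7 members of the YAP and TAZ list rose and 1 fell, and with scaling by library totals alone 9 rose and 9 fell.

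Focal adhesion and actin cytoskeleton genes moved the same way, with 24 of 30 higher, 3 lower and 3 not passing (median 0.56). The rises were mostly modest, and 4 members reached 2-fold. Csrp2, a LIM protein of actin bundles, rose 2.01 ± 0.16, tensin (Tns1), which links integrins to actin, 1.23 ± 0.11, and integrin-linked kinase (Ilk) 0.66 ± 0.066. The actin-severing gene Cfl1 stood at 786, 804, 876 and 974 CPM without TGF-beta and 1204, 1277, 1189 and 1567 CPM with it. Its groups did not overlap although the fold was small (0.60 ± 0.066, adjusted p = 2.12e-06). Ablim1, another actin-binding LIM protein, fell by the most in the list (-2.73 ± 0.24). Without the block 20 rose and 1 fell. Integrin subunits, the matrix receptors at these adhesions, were divided, with 6 of 18 higher and 7 lower, where 25.2% of all genes rose and 27.3% fell. Of these subunits 3 rose without the block or without any one of preparations 1, 2 or 3. The fibronectin receptor subunit Itga5 stood at 271, 342, 463 and 380.1 CPM without TGF-beta and 1362, 1224, 1427 and 1283 CPM with it. It rose in all 4 preparations (1.89 ± 0.11, adjusted p = 3.77e-09). The laminin receptor subunit Itgb4 and the nephronectin receptor subunit Itga8 fell (-2.07 ± 0.23 and -2.19 ± 0.37).

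**Figure D2:**
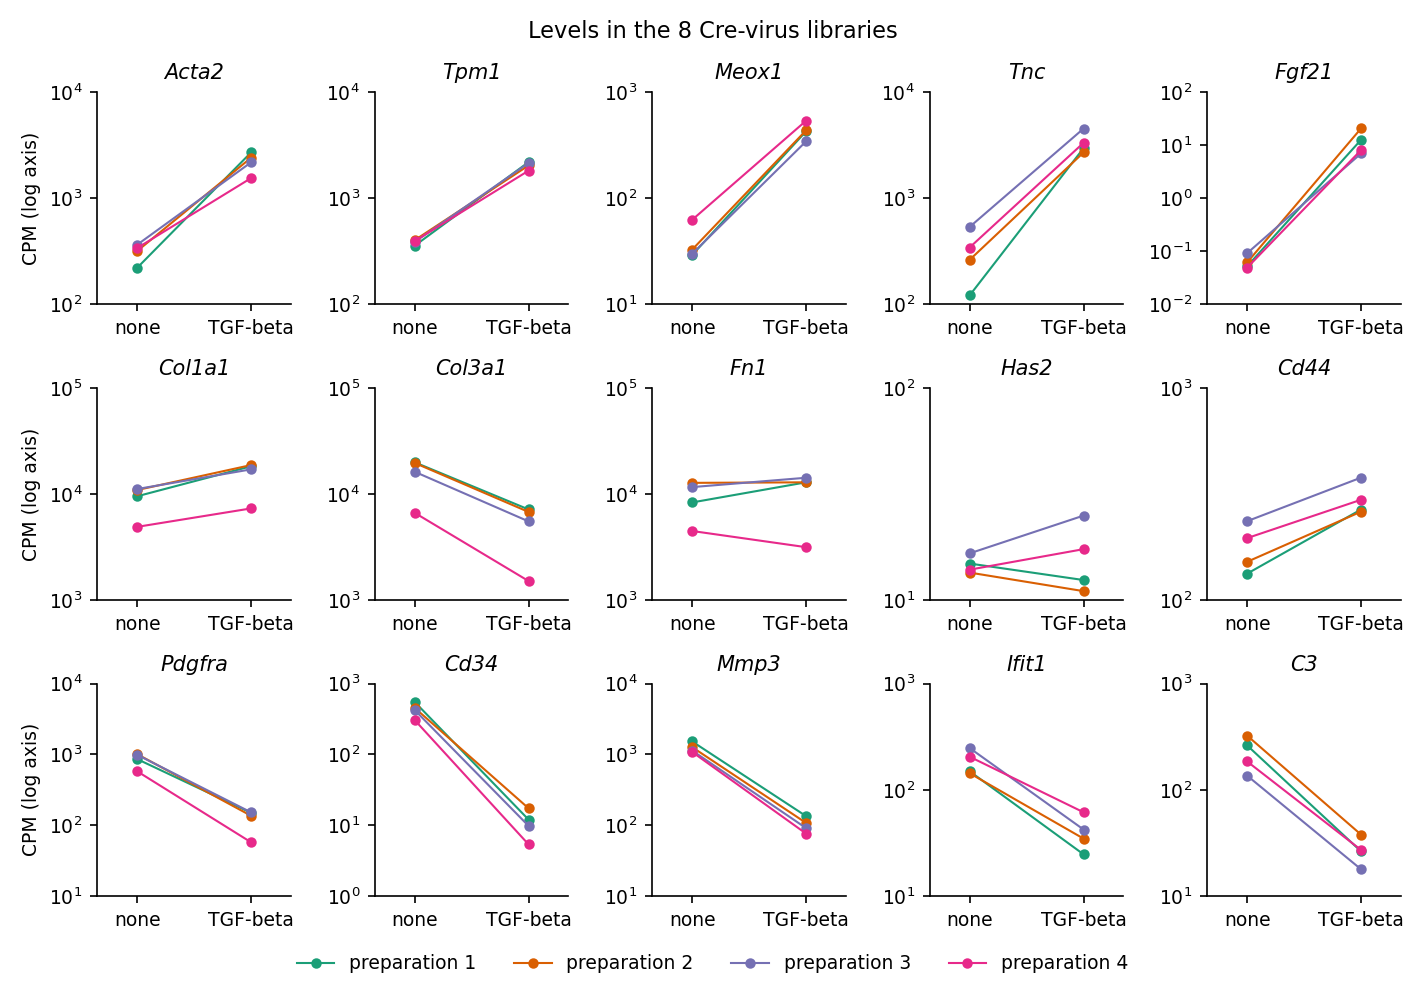
Levels in CPM (log axis) of 15 genes in the 8 Cre-virus libraries, with a line joining the libraries of each of the 4 preparations without and with TGF-beta. Lines of Acta2, Tpm1, Meox1 and Fgf21 rise in all 4 preparations, those of Pdgfra, Mmp3, Ifit1 and Cd34 fall in all 4, and those of Has2 and Fn1 differ in direction between preparations.

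Within the TGF-beta pathway itself, ligands and receptors did not move together. Of 22 genes for ligands, receptors and latency proteins, 9 rose and 8 fell (median 0.075, and -0.005 when scaled by library totals alone). Over all genes 25.2% rose and 27.3% fell. Tgfb1, the main ligand gene of the heart, stood at 68.6, 77.7, 87.2 and 101 CPM without TGF-beta and 198, 171, 192 and 250.5 CPM with it. The groups did not overlap (1.28 ± 0.084, adjusted p = 9.66e-09). Tgfb2 stood at 50.3, 45, 30.5 and 12.8 CPM without TGF-beta and 27.4, 27.6, 23.6 and 6.41 CPM with it. Its value in preparation 4 without TGF-beta lay below 3 of the values with it, so the groups overlapped, and it fell within each preparation (-0.73 ± 0.10, adjusted p = 2.87e-05; adjusted p = 0.343 without the block). Tgfb3, with 135, 167, 120.3 and 113 CPM without TGF-beta and 172, 146, 154 and 102 CPM with it, did not pass (0.095 ± 0.10). The latency protein gene Ltbp2 rose 2.31 ± 0.19. The co-receptor Tgfbr3, which presents ligand to the kinase receptors, fell from 38.7 ± 8.19 to 5.57 ± 1.62 CPM (-2.81 ± 0.12, adjusted p = 9.65e-11). The receptor kinase genes Acvrl1 and Acvr1b fell (-1.53 ± 0.068 and -1.66 ± 0.12), as did the activin subunit Inhbb (-2.85 ± 0.20).

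SMAD and feedback genes leaned upward, with 13 of 25 higher and 5 lower (median 0.40). The receptor-blocking SMAD gene Smad7 stood at 67.3, 77, 65.5 and 48.7 CPM without TGF-beta and 103, 109, 106 and 87.8 CPM with it. It rose in each preparation by a similar amount (0.67 ± 0.067, adjusted p = 9.14e-07). Skil, which encodes a repressor of SMAD transcription, and Pmepa1, which encodes a membrane protein that holds back SMADs, rose 1.33 ± 0.19 and 1.32 ± 0.11. Smad3, the signal carrier, stood at 159, 151, 169 and 135 CPM without TGF-beta and 71.4, 65.2, 75.7 and 47.4 CPM with it. It fell in all 4 preparations (-1.25 ± 0.087, adjusted p = 1.93e-08). Among widely used targets, the oxidase gene Nox4 rose 2.81 ± 0.17 from 5.81 ± 0.824 to 41.6 ± 12.1 CPM, and Ccn2, a matricellular growth regulator, rose 0.93 ± 0.11. Tgfbi, a matrix protein gene named for its induction by TGF-beta in other cells, stood at 405, 454, 338 and 192 CPM without TGF-beta and 23.4, 36.9, 19.7 and 26.2 CPM with it. Here it fell in every preparation (-3.66 ± 0.23, adjusted p = 3.03e-08). Without the block 11 of the list rose and 2 fell.

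The bone morphogenetic protein (BMP) branch, which signals through other SMADs to the ID genes, was mostly lower, with 5 of 21 higher and 11 lower. The ID genes encode helix-loop-helix proteins that block differentiation factors. Id1 stood at 68.8, 54.1, 46.6 and 40.0 CPM without TGF-beta and 20.9, 25.4, 20.7 and 30.3 CPM with it, and Id3 at 551, 582, 360.3 and 281 CPM without TGF-beta and 192, 194, 145 and 138 CPM with it. Neither gene's groups overlapped (-1.09 ± 0.18, adjusted p = 0.000245 and -1.36 ± 0.12, adjusted p = 1.74e-07). The ligand genes Bmp6 and Bmp4 fell (-1.50 ± 0.089 and -1.61 ± 0.12), and so did the antagonist Chrd (-1.55 ± 0.12). The activin antagonist Fstl3 and the receptor Bmpr1b rose (1.43 ± 0.12 and 2.60 ± 0.28). Without preparation 4 the list had 9 higher, and 7 lower without preparation 2.

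Collagen genes split by type. Among 16 fibrillar collagens and partners 7 rose and 4 fell, whereas among 11 non-fibrillar collagens 3 rose and 8 fell (medians 0.15 and -1.28). Over all genes 25.2% rose and 27.3% fell. Without the block 4 of the fibrillar and 1 of the non-fibrillar list rose. Col1a1, a chain of type I collagen, stood at 9521, 10900, 11140 and 4907 CPM without TGF-beta and 18250, 18730, 17070 and 7320 CPM with it. Preparation 4 was low in both groups, so the groups overlapped, but each preparation rose (0.73 ± 0.076, adjusted p = 1.4e-06; adjusted p = 0.126 without the block). The partner chain Col1a2 stood at 9968, 10030, 10510 and 5364 CPM without TGF-beta and 12150, 12790, 11320 and 5248 CPM with it and did not pass (0.18 ± 0.075, adjusted p = 0.0577). Preparation 4 was lowest in both groups, and without it the difference passed (0.26, adjusted p = 0.00596), as it did by DESeq2 with all libraries (adjusted p = 0.0302). The reticular collagen Col3a1 stood at 19910, 19640, 16220 and 6664 CPM without TGF-beta and 7164, 6787, 5530 and 1518 CPM with it. It fell in every preparation, and the groups overlapped only through preparation 4 without TGF-beta (-1.67 ± 0.099, adjusted p = 3.59e-09). Col5a2 and the collagen regulator Cthrc1 rose (1.22 ± 0.096 and 2.68 ± 0.21), and Col14a1, which decorates fibrils, fell (-3.30 ± 0.29). Of the non-fibrillar chains, Col6a1 and Col6a2, which form beaded microfibrils, fell from 625 ± 234 to 59.2 ± 27.8 CPM and from 382 ± 159 to 34.8 ± 17 CPM (-3.49 ± 0.17 and -3.53 ± 0.15). Col7a1, the anchoring fibril collagen, stood at 13.2, 18, 19.2 and 14.9 CPM without TGF-beta and 153, 169, 170.5 and 106 CPM with it. It rose in all 4 preparations (3.18 ± 0.16, adjusted p = 2.16e-09). Fn1, the fibronectin gene, stood at 8332, 12740, 11620 and 4489 CPM without TGF-beta and 12890, 12890, 14230 and 3161 CPM with it. Preparations 1 and 3 were higher with TGF-beta, preparation 2 nearly equal and preparation 4 lower, and the difference did not pass (0.12 ± 0.14, adjusted p = 0.494). Without preparation 4 it did (0.32, adjusted p = 0.0148).

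Genes that modify and cross-link collagen leaned upward, with 14 of 28 higher and 8 lower (8 and 5 without the block). Lysyl oxidase (Lox), which cross-links collagen and elastin, stood at 1146, 1492, 1482 and 964 CPM without TGF-beta and 6428, 5256, 5886 and 1673 CPM with it. Preparation 4 rose least (1.81 ± 0.24, adjusted p = 3.36e-05). The propeptide-cleaving protease Adamts14 rose 1.78 ± 0.090 while its relative Adamts2 fell by 2.09 ± 0.078. The propeptidase enhancer Pcolce and the prolyl hydroxylase P4ha3 also fell (-1.16 ± 0.078 and -1.53 ± 0.071). Elastic fibre and microfibril genes were mostly lower, with 4 of 19 higher and 11 lower. Efemp1, a fibulin, stood at 198, 110.3, 108 and 204 CPM without TGF-beta and 6.94, 6.59, 5.30 and 5.81 CPM with it. It fell to between 5 and 7 CPM in every preparation (-4.60 ± 0.22, adjusted p = 2.26e-09). Elastin (Eln) rose 2.17 ± 0.20, with preparation 4 low in both groups. Basement membrane genes were lower for 10 of 21 and higher for 3, and without the block 3 fell. Leaving out preparation 4 gave 7 that rose. The laminin chain Lama4 and the laminin binder Nid2 fell (-1.85 ± 0.21 and -1.75 ± 0.21).

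Matricellular genes, whose products sit in the matrix to signal rather than to bear load, were lower for 14 of 23 and higher for 6 (median -0.83). The list's summed level nevertheless went from 13360 ± 1723 to 23870 ± 3767 CPM. Tenascin C (Tnc) stood at 122, 263, 536 and 344 CPM without TGF-beta and 2958, 2696, 4523 and 3321 CPM with it. The groups lay far apart (3.56 ± 0.29, adjusted p = 3.3e-07). Ccn4, a Wnt-induced CCN protein, rose 3.52 ± 0.36, and its relative Ccn3 fell by 3.94 ± 0.22. Periostin (Postn), often used as a mark of activated heart fibroblasts, stood at 171, 52.9, 84.3 and 111 CPM without TGF-beta and 44.9, 36.2, 26.2 and 5.17 CPM with it. It fell in every preparation, from widely spread starting values (-2.03 ± 0.53, adjusted p = 0.00606). Tenascin X (Tnxb) and Abi3bp, another matrix protein gene, fell (-2.96 ± 0.18 and -5.75 ± 0.34).

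Proteoglycan core proteins were lower for 12 of 26 and higher for 4. Prelp, a leucine-rich repeat protein that anchors basement membranes, stood at 1127, 1001, 822 and 355 CPM without TGF-beta and 28.6, 30.3, 18.4 and 7.05 CPM with it. The highest value with TGF-beta was far below the lowest without (-5.36 ± 0.25, adjusted p = 1.92e-09). Syndecan 4 (Sdc4) fell by 1.33 ± 0.078, and the proteoglycan Cspg4 rose 2.64 ± 0.15. Leaving out preparation 4 gave 7 that rose in this list. Genes that build chondroitin, dermatan and heparan sulfate did not stand out, with 9 of 36 higher and 9 lower (5 lower without the block and 4 without preparation 2), where 25.2% of all genes rose and 27.3% fell. The chondroitin sulfotransferase Chst11 rose 2.24 ± 0.18, and the heparan sulfotransferase Hs3st1 fell by 3.02 ± 0.16.

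For hyaluronan, the product of the targeted gene, 3 of 16 genes of synthesis and turnover rose and 7 fell (1 and 4 without the block). Has1, the other synthase expressed, stood at 0.549, 1.19, 2.95 and 5.16 CPM without TGF-beta and 1.36, 2.00, 1.54 and 4.41 CPM with it. The groups overlapped, and the difference did not pass (0.13 ± 0.33, adjusted p = 0.749). Gfpt2, which starts the hexosamine pathway that feeds synthesis, fell by 1.11 ± 0.11, while Pgm3 of the same pathway rose 0.48 ± 0.079. The cell surface hyaluronidase Cemip2 and the lysosomal hexosaminidase subunit Hexa fell (-1.0 ± 0.088 and -0.80 ± 0.084). Among 15 receptors and binding proteins 2 rose and 7 fell. The receptor Cd44 stood at 133, 152, 236 and 196 CPM without TGF-beta and 267, 261, 378 and 297 CPM with it. It rose in all 4 preparations (0.77 ± 0.10, adjusted p = 1.62e-05). Pentraxin 3 (Ptx3), which stabilises hyaluronan-rich matrix, stood at 169, 159, 208 and 159 CPM without TGF-beta and 10.7, 16.7, 11.6 and 9.18 CPM with it. It fell by a similar amount in each (-3.86 ± 0.17, adjusted p = 4.87e-10).

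Matrix proteases and their inhibitors were lower for 16 of 30 and higher for 6 (10 higher without preparation 4). Stromelysin (Mmp3) stood at 1526, 1269, 1136 and 1085 CPM without TGF-beta and 135, 108, 91.2 and 76.3 CPM with it. Every value with TGF-beta was below every value without, and its adjusted p was among the smallest of all genes (-3.63 ± 0.10, adjusted p = 3.63e-12). The gelatinase Mmp2 and the inhibitor Timp2 fell (-1.37 ± 0.075 and -1.41 ± 0.078), whereas the inhibitor Timp1 rose from 2571 ± 345 to 4623 ± 1044 CPM (0.84 ± 0.096). Mmp10, a close relative of Mmp3, rose 4.16 ± 0.28 from 2.50 ± 1.90 to 39.9 ± 22.6 CPM. In the plasminogen system 3 of 17 rose, all at least 2-fold, and 7 fell. Its summed level went up, from 5042 ± 574 CPM without to 10540 ± 1319 CPM with TGF-beta. The activator Plat and the protease inhibitor Serpine2 fell (-1.89 ± 0.13 and -2.0 ± 0.081). Serpina3n, an acute phase inhibitor, stood at 1134, 1361, 609.5 and 216 CPM without TGF-beta and 66.5, 85.2, 42.7 and 9.62 CPM with it. Levels differed widely between preparations, while the ratio within each was alike (-4.10 ± 0.12, adjusted p = 8.81e-12).

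Markers of fibroblast identity and of resting fibroblasts mostly fell. Of 29 tested, 23 fell and 2 rose, with a median of -1.95, and 19 of them fell at least 2-fold. The platelet-derived growth factor receptor gene Pdgfra, a surface mark of heart fibroblasts, stood at 861, 1011, 989 and 579 CPM without TGF-beta and 149.9, 136, 152 and 57.5 CPM with it. The groups were well separated (-2.85 ± 0.12, adjusted p = 1.21e-10). Tcf21, the transcription factor gene that marks resting heart fibroblasts, stood at 164, 141, 113 and 73.3 CPM without TGF-beta and 31, 36.7, 25.2 and 13.7 CPM with it. It fell in each preparation (-2.24 ± 0.089, adjusted p = 7.91e-11). Cd34, a sialomucin of mesenchymal progenitors, stood at 553, 456, 424 and 307 CPM without TGF-beta and 12, 17.4, 9.81 and 5.37 CPM with it. Thy1, another surface mark, fell less (-2.12 ± 0.078 against -5.36 ± 0.28). Ly6a, which encodes the progenitor antigen SCA-1, stood at 238, 164, 178 and 235 CPM without TGF-beta and 2.37, 2.15, 1.98 and 8.82 CPM with it. It fell in all 4, least in preparation 4 (-5.89 ± 0.42, adjusted p = 1.16e-07). Scara5, a ferritin receptor of resting fibroblasts, stood at 15.4, 7.12, 7.64 and 4.87 CPM without TGF-beta and 0.0324, 0.0377, 0 and 0.0401 CPM with it. With TGF-beta it had 3 counts in all 4 libraries together against 1298 without, a ratio of 312 (95% interval 106 to 1510, counting error only). Nt5e and the microfibril gene Mfap5 were the members that rose (2.05 ± 0.30 and 0.97 ± 0.12).

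Transcription factors of heart fibroblasts were lower for 22 of 38 and higher for 9. The nuclear receptor Nr2f1, Hand2, a helix-loop-helix factor of heart development, and Meox2 fell (-1.77 ± 0.10, -1.16 ± 0.076 and -3.86 ± 0.25). The direction for Meox2 was opposite to that of its homologue Meox1, described above. Foxp1, a forkhead factor, rose 1.13 ± 0.091. As a check of the label, 14 general fibroblast markers were all detected. Of these, 9 fell and 1 rose, and Col1a2 and 3 others did not pass.

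**Figure D3:**
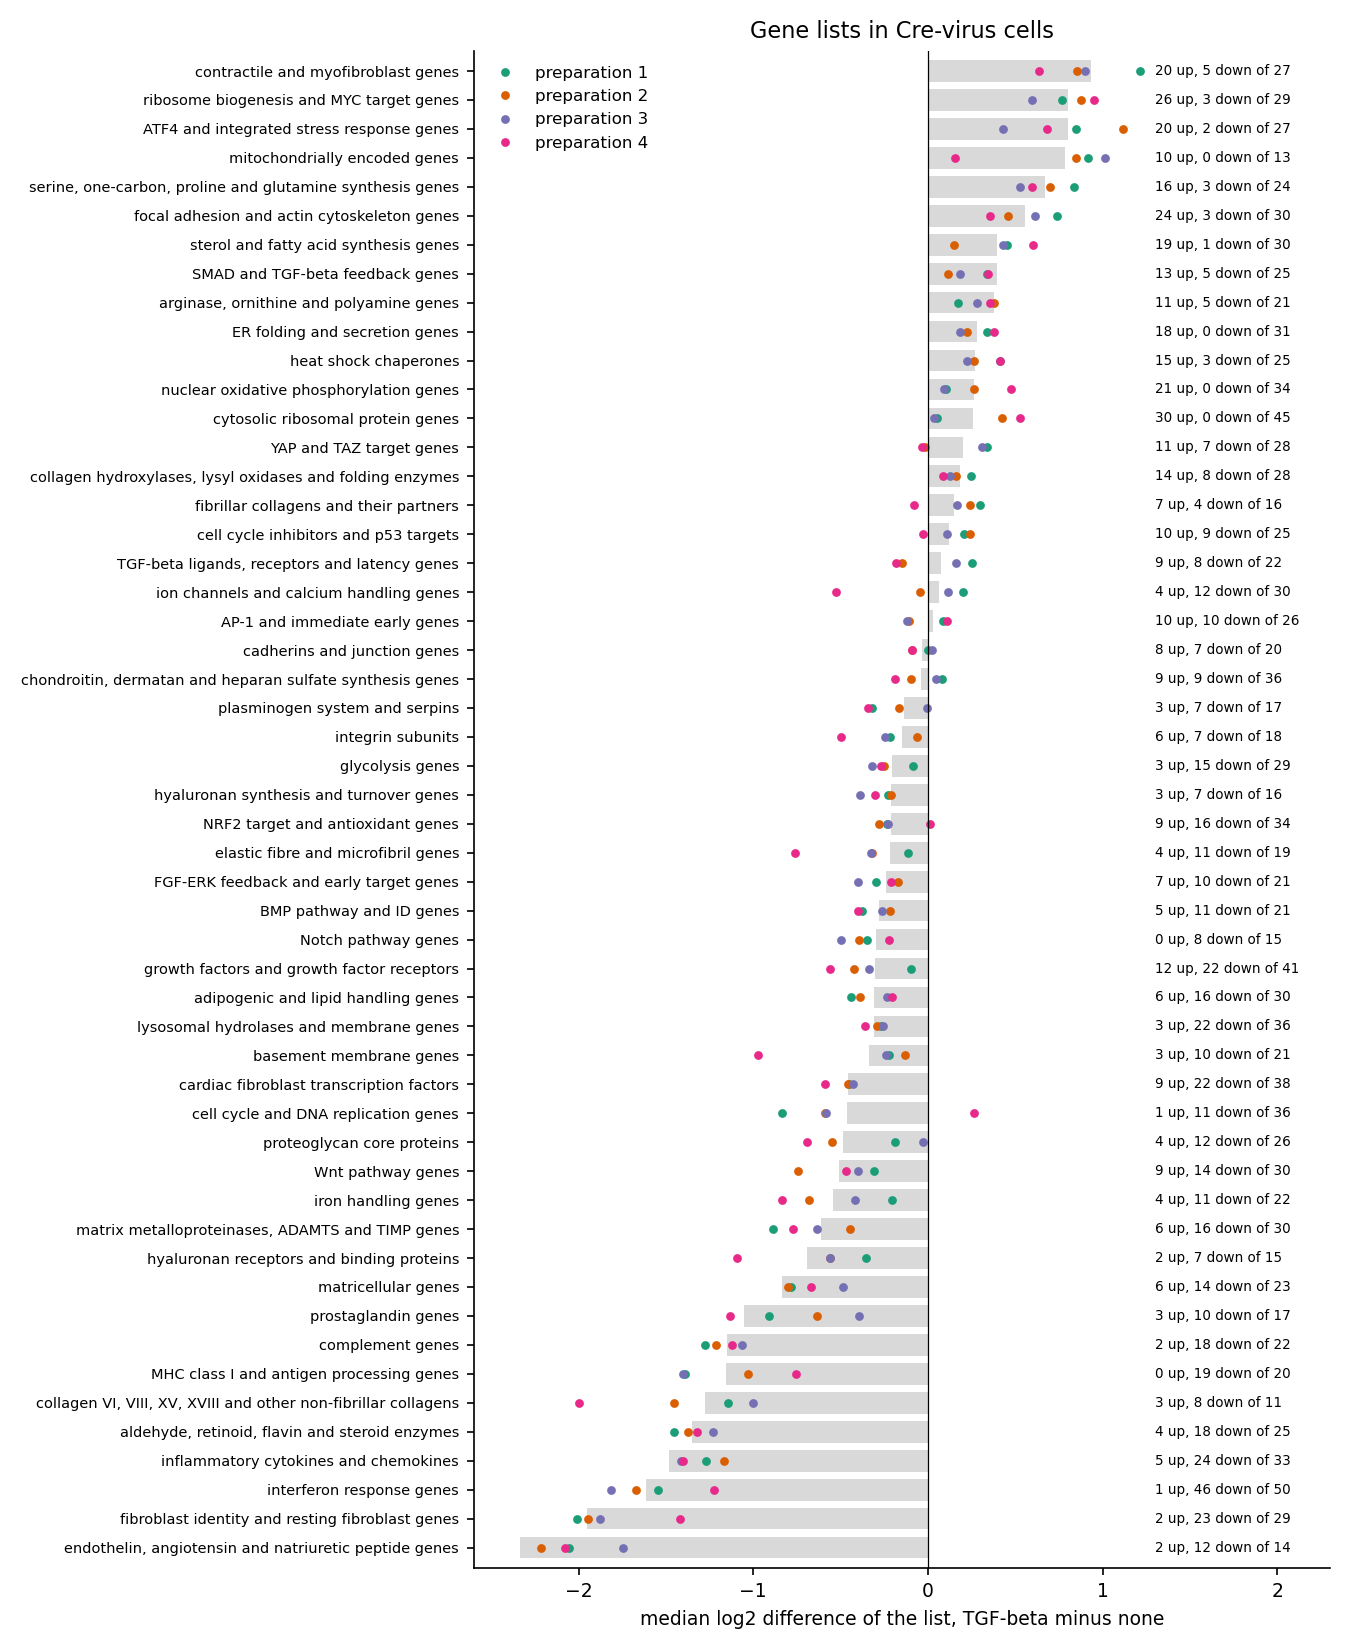
Median log2 difference with TGF-beta of each of 52 gene lists in Cre-virus cells (bar), with the list's median within each of the 4 preparations (points), and the number of members that rose and fell out of those tested at the right. Points are medians of log2 CPM differences with 2 counts added to each library and so lie nearer 0 for low genes. Contractile and ATF4 lists lie right of 0 and interferon, fibroblast identity and endothelin lists left of it, and the cell cycle list differs in sign between preparation 4 and the others.

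Interferon response genes fell. Interferons signal through STAT factors to a set of antiviral genes. Of 50 tested, 46 fell, 1 rose and 3 did not pass (median -1.61, and 36 fell without the block). Both groups had received the same virus. Ifit1, which encodes a protein that binds viral RNA, stood at 149.6, 143, 248 and 205 CPM without TGF-beta and 24.7, 34.7, 42.3 and 61.5 CPM with it. The groups did not overlap (-2.24 ± 0.18, adjusted p = 2.48e-07). The guanylate-binding GTPase gene Gbp2 stood at 82.2, 78.1, 126 and 80.7 CPM without TGF-beta and 14.1, 13.4, 17.2 and 14.3 CPM with it. It fell to nearly the same level in all 4 preparations (-2.62 ± 0.12, adjusted p = 3.28e-10). Isg15, a ubiquitin-like antiviral modifier, stood at 179, 197, 281 and 228 CPM without TGF-beta and 80.4, 91, 94.5 and 202 CPM with it. Preparation 4 fell little, and the groups overlapped (-1.05 ± 0.22, adjusted p = 0.00137; adjusted p = 0.0868 without the block). Gbp5, Cmpk2 and Irgm2, all antiviral or antimicrobial effectors, fell (-3.99 ± 0.17, -2.99 ± 0.20 and -1.89 ± 0.092). Ifi27 was the member that rose, with 73, 78.2, 42.3 and 88.5 CPM without TGF-beta and 165, 151, 122 and 229 CPM with it (1.25 ± 0.15).

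The promoters of Ifit1 and Gbp2 are shown because they belong to this list and hold the core of the interferon-stimulated response element. The runs are again 250 bases before the start in GRCm38.p6, with GAAANNGAAA in capitals on either strand, at chr19:34640639-34640888 (forward strand) and chr3:142620413-142620662 (forward strand).
Ifit1: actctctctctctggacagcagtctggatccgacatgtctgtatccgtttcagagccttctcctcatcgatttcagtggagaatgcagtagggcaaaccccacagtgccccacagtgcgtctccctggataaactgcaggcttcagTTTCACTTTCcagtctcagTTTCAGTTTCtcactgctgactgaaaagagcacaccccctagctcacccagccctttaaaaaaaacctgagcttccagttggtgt
Gbp2: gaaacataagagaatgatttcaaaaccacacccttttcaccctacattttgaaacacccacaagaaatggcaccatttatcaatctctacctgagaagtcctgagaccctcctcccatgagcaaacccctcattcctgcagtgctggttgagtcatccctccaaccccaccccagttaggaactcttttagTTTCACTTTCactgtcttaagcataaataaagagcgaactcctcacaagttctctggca
The core, in which N is any base, was found in 3.25% of the 10764 tested genes with a promoter (350 genes). It was found in 4.68% of genes that fell, 2.57% of genes that rose and 2.73% of those that did not pass. In the interferon list it was found in 20 of 38 genes. This element is part of how interferon targets are known, so the count describes the list and not the response.

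Genes of antigen presentation fell as well. Of 20 MHC class I and antigen processing genes 19 fell and none rose (median -1.16). Several class I genes are near-identical copies, and how reads were divided between them is not known. The peptide transporter gene Tap1 stood at 79.5, 89, 103 and 72.6 CPM without TGF-beta and 25.9, 28.8, 26.8 and 30.6 CPM with it. The groups did not overlap (-1.61 ± 0.10, adjusted p = 5.95e-09). H2-T23, a class I gene, fell by 2.23 ± 0.13. Complement genes fell in 18 of 22 cases and rose in 2 (none without the block, 1 without preparation 2). The central component C3 stood at 262, 324, 136 and 185 CPM without TGF-beta and 26.3, 37.9, 17.9 and 27.2 CPM with it. It fell in each (-3.03 ± 0.12, adjusted p = 6.51e-11). C4b fell by 3.47 ± 0.16, and Serping1, which encodes the inhibitor of the first complement protease, stood at 849.9, 709.5, 614 and 432 CPM without TGF-beta and 121, 113, 86.9 and 65.2 CPM with it. Its within-preparation falls were nearly equal (-2.75 ± 0.075, adjusted p = 3.63e-12).

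Cytokines and chemokines were lower for 24 of 33 and higher for 5, or 8 without preparation 4 (median -1.48). Il33, an alarmin, stood at 36.3, 25, 19.8 and 12 CPM without TGF-beta and 0.422, 0.829, 0.712 and 0.521 CPM with it. Almost none was left with TGF-beta (-5.19 ± 0.27, adjusted p = 2.19e-09). The chemokine Cxcl12 and the interleukin 1 receptor Il1r1 fell (-1.35 ± 0.15 and -3.57 ± 0.14), and Cxcl5 fell by 5.88 ± 0.46 from 13.2 ± 6.34 to 0.218 ± 0.103 CPM. Ccl2, which attracts monocytes, stood at 38.3, 16.6, 55.7 and 116 CPM without TGF-beta and 16.7, 13, 14.2 and 23.1 CPM with it. The groups overlapped through preparation 2 and the fall was largest in preparation 4 (-1.49 ± 0.36, adjusted p = 0.00356). Interleukin 11 (Il11), a cytokine with known fibrotic effects in heart fibroblasts, stood at 2.27, 3.56, 4.83 and 12.1 CPM without TGF-beta and 38.3, 48.9, 33.2 and 113 CPM with it. Preparation 4 was highest in both groups, and all 4 rose (3.45 ± 0.25, adjusted p = 1.21e-07). Il6 stood at 7.34, 13.4, 14.2 and 26.7 CPM without TGF-beta and 44.5, 42.4, 38.5 and 15.1 CPM with it. Preparations 1 to 3 were higher with TGF-beta and preparation 4 lower, and the difference did not pass (1.32 ± 0.53, adjusted p = 0.0512). Without preparation 4 it did (1.89, adjusted p = 7.04e-05), and with all libraries it lay just under the threshold by DESeq2 (adjusted p = 0.0448) and by edgeR with a stricter filter on low counts (adjusted p = 0.046). The chemokine gene Ccl17 rose from 1.40 ± 0.522 to 29.9 ± 2.81 CPM (4.41 ± 0.28).

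Markers of macrophages fell in the same cultures. Of 20 macrophage and leukocyte markers 14 were tested, and 13 of these fell and none rose (3 fell without the block). Their summed level ran from 697 to 1852 CPM without TGF-beta and from 449 to 1151 CPM with it, highest in preparation 4 of each group. Of the defining markers, Cd68 stood at 22.7, 24.2, 20.0 and 51.6 CPM without TGF-beta and 8.34, 8.29, 8.82 and 21.6 CPM with it. It fell within every preparation (-1.35 ± 0.080, adjusted p = 3.66e-09). The complement gene C1qa, which macrophages make, stood at 71.6, 74.8, 66 and 182 CPM without TGF-beta and 30.3, 40.8, 32.6 and 102 CPM with it (-0.99 ± 0.081; adjusted p = 0.139 without the block). The lymphocyte markers Cd3e and Nkg7 had no count. The 3 subunit genes of the complement protein C1q belong to both the macrophage and the complement list, and the part that macrophages had in the falls of the complement and interferon lists was not tested. Endothelial markers were low, summing to 69.9 ± 17.5 CPM without and 41.6 ± 5.91 with TGF-beta, and 9 of 14 fell (4 without the block, 5 without preparation 1). The 10 pericyte and vascular smooth muscle markers summed to 346 ± 75.8 CPM without and 145 ± 42.9 CPM with TGF-beta, and 8 fell, the largest being Cox4i2 and Ndufa4l2 (-4.36 ± 0.37 and -3.70 ± 0.36). The other 2, Cspg4, described above with the proteoglycans, and Myh11, rose at least 2-fold. Myh11, the smooth muscle myosin that would mark smooth muscle cells, stood at 1.04, 0.659, 1.15 and 0.442 CPM without TGF-beta and 4.12, 2.41, 2.89 and 0.281 CPM with it. It was higher with TGF-beta in preparations 1 to 3 and lower in preparation 4 (1.40 ± 0.30, adjusted p = 0.00112; adjusted p = 0.104 without the block). Cardiomyocyte markers were near 0, with Actc1, Nppa and Pln at 0 counts in all 8 libraries.

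Growth factor genes changed in both directions, with 12 of 41 higher and 22 lower. Pdgfc, a ligand of the receptor encoded by Pdgfra, stood at 4.34, 7.68, 6.21 and 5.53 CPM without TGF-beta and 75.9, 74, 70.8 and 59.2 CPM with it. All 4 preparations rose while the receptor gene fell (3.58 ± 0.18, adjusted p = 1.88e-09). The angiogenic factor Vegfa stood at 160.4, 174, 188 and 195 CPM without TGF-beta and 579, 621, 533 and 529.9 CPM with it. Its relative Vegfd moved the other way (1.66 ± 0.096 and -3.89 ± 0.13). The receptor for glial-derived factors Gfra1 fell by 4.53 ± 0.15.

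Feedback genes of the FGF and ERK route were lower for 10 of 21 and higher for 7 (4 and 3 without the block). The inhibitor Spry2 stood at 209, 230.1, 179 and 149.5 CPM without TGF-beta and 61.4, 77.6, 67.8 and 44.5 CPM with it. It fell by a similar ratio in each (-1.62 ± 0.072, adjusted p = 1.86e-10). Spry4 and the ETS factor Etv5 fell (-1.20 ± 0.14 and -1.40 ± 0.14), and so did the ERK phosphatase Dusp6 (-0.73 ± 0.17; adjusted p = 0.231 without the block). Etv4 and Ier3, also targets of ERK, rose (0.96 ± 0.084 and 1.59 ± 0.14). The labels leave the bFGF exposure of the groups unstated, as given above, so its part in these values cannot be told apart from that of TGF-beta.

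Wnt pathway genes moved in both directions, with 9 of 30 higher and 14 lower, where 25.2% of all genes rose and 27.3% fell. The ligand Wnt11 stood at 2.48, 5.00, 3.91 and 3.56 CPM without TGF-beta and 70.1, 62.1, 65.3 and 62.5 CPM with it. Its values were alike across preparations (4.14 ± 0.18, adjusted p = 5.84e-10). The nuclear effector Lef1 rose 5.35 ± 0.36 from 0.153 ± 0.116 to 6.26 ± 1.69 CPM. The secreted inhibitor Sfrp4, the receptor Fzd1 and the agonist Rspo2 fell (-3.32 ± 0.19, -1.79 ± 0.10 and -3.47 ± 0.20). Of 15 Notch pathway genes 8 fell and none rose, or 2 without preparation 4 (4 fell without the block, and 5 without any one of preparations 1, 2 or 3), among them the receptor genes Notch3 and Notch1 (-2.10 ± 0.22 and -0.99 ± 0.14).

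Genes of the endothelin, angiotensin and natriuretic systems, which set vascular tone and fluid balance, had the lowest median of the 52 lists (-2.34). Of 14 tested, 12 fell and 2 rose (1 without the block). Angiotensinogen (Agt) stood at 11.1, 6.96, 6.26 and 6.22 CPM without TGF-beta and 0.260, 0.151, 0.237 and 0.200 CPM with it. With TGF-beta it had 23 counts in 4 libraries (-5.15 ± 0.23, adjusted p = 1.86e-10). The converting enzyme Ace stood at 570.3, 627, 476 and 280.3 CPM without TGF-beta and 39.9, 36.2, 28.1 and 19.3 CPM with it. It fell by nearly the same ratio in each (-3.97 ± 0.13, adjusted p = 1.74e-11). The vasodilator peptide adrenomedullin (Adm) and the endothelin-converting enzyme Ece1 fell (-2.76 ± 0.13 and -1.43 ± 0.067). Endothelin 1 (Edn1) stood at 3.60, 4.38, 3.91 and 2.78 CPM without TGF-beta and 14.1, 18.6, 18.9 and 16.1 CPM with it. It rose while its converting enzyme fell (2.21 ± 0.11, adjusted p = 5.56e-10).

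Amino acid and stress response genes mostly rose. ATF4 is a transcription factor whose translation increases when amino acids are scarce or the endoplasmic reticulum is strained. Of 27 of its targets 20 rose and 2 fell (median 0.80), and of 24 genes of serine, one-carbon, proline and glutamine synthesis 16 rose and 3 fell (median 0.67, and 1 fell without the block). Fgf21, a secreted metabolic hormone, had the highest log2 difference of the named genes, with 0.0522, 0.0617, 0.0921 and 0.0491 CPM without TGF-beta and 12.6, 20.6, 6.96 and 8.06 CPM with it. It was close to undetected without TGF-beta, with 9 counts in 4 libraries, so the size of the fold is uncertain (7.59 ± 0.35, adjusted p = 2.96e-10). Asparagine synthetase (Asns) stood at 98.7, 114, 131 and 113 CPM without TGF-beta and 263, 329, 240.1 and 253 CPM with it. The groups did not overlap (1.24 ± 0.11, adjusted p = 2.36e-07). Phgdh, the first enzyme of serine synthesis, stood at 79.4, 75.2, 104 and 101 CPM without TGF-beta and 248, 327, 239 and 338 CPM with it. Preparations 2 and 4 rose most (1.68 ± 0.13, adjusted p = 9.93e-08). Pycr1, which makes proline, and Mthfd1, of the folate cycle, rose 1.06 ± 0.092 and 0.94 ± 0.062. The stress protein Nupr1 and the seryl-tRNA synthetase Sars rose (1.91 ± 0.15 and 0.93 ± 0.075). Glul, which makes glutamine, and Cebpb, a partner of ATF4, fell (-0.99 ± 0.076 and -0.89 ± 0.11).

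The promoters of Fgf21 and Asns are shown because both genes rose and both hold the C/EBP-ATF response element core, to which ATF4 binds in known targets. TGATGNAA is in capitals on either strand, in 250 bases before the start in GRCm38.p6, at chr7:45615491-45615740 (reverse strand) and chr6:7693210-7693459 (reverse strand).
Fgf21: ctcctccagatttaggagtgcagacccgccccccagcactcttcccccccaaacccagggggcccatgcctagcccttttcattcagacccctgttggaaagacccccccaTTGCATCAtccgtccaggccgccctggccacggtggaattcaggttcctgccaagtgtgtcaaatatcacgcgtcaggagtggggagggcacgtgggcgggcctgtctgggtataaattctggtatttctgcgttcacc
Asns: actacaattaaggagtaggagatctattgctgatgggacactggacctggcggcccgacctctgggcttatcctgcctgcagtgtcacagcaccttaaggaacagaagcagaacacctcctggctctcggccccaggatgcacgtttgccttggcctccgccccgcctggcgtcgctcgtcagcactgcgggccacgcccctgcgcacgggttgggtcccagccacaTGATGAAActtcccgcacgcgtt
This core was found in 2.49% of all 10764 genes with a promoter and in 8 of 22 of the ATF4 list. It was found in 7 of 15 that rose, 0 of 2 that fell and 1 of 5 that did not pass. Among all genes the shares were 2.68% of those that rose and 2.95% of those that fell. The core is part of how ATF4 targets are known, so its count describes the list and not the response.

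Arginine and polyamine genes were higher for 11 of 21 and lower for 5. Arginase (Arg1), which splits arginine into ornithine and urea, stood at 0.392, 0.926, 0.368 and 1.01 CPM without TGF-beta and 12.1, 19.8, 13.1 and 42.7 CPM with it. Preparation 4 was highest with TGF-beta (4.95 ± 0.19, adjusted p = 4.29e-11). Ornithine decarboxylase (Odc1) and spermidine synthase (Srm), the next steps towards polyamines, rose 1.06 ± 0.11 and 0.99 ± 0.087.

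Genes for making ribosomes mostly rose, with 26 of 29 higher and 3 lower (median 0.80). The nucleolar protein genes Rrp9 and Gnl3 rose 1.12 ± 0.10 and 1.31 ± 0.12. Npm1, the nucleophosmin gene, stood at 206, 136, 197 and 452 CPM without TGF-beta and 413, 399, 466 and 876 CPM with it. It rose in each preparation, and preparation 4 without TGF-beta overlapped the others with it (1.20 ± 0.10, adjusted p = 1.93e-07; adjusted p = 0.0755 without the block). Mycn fell by 1.41 ± 0.18. Ribosomal protein genes had small rises, with 30 of 45 higher (median 0.26). Their count depended on the settings: 9 rose without the block, 11 with the 8 Cre-virus libraries alone, 12 with scaling by library totals alone and 7 without preparation 2. Medians within preparations 1 to 4 were 0.050, 0.42, 0.037 and 0.53. Many of these genes have processed copies in the genome, which makes their counts uncertain.

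Mitochondrial genes mostly rose. Of 13 mitochondrially encoded genes 10 rose and none fell (median 0.79). Of 34 nuclear genes of oxidative phosphorylation 21 rose and none fell (median 0.27). In that nuclear list 12 rose without the block and 14 with the 8 Cre-virus libraries alone, and 1 fell without preparation 4's library with TGF-beta. Medians of the mitochondrially encoded list within preparations 1 to 4 were 0.916, 0.845, 1.016 and 0.152. In preparation 4 that list summed to 6253 CPM without and 6012 CPM with TGF-beta. mt-Nd1, a subunit of the first respiratory complex, stood at 356, 353, 299.6 and 588 CPM without TGF-beta and 840.1, 673, 781 and 849 CPM with it. Preparation 4 rose least, and the groups were separate (1.02 ± 0.14, adjusted p = 3.35e-05). Cytochrome c (Cycs) rose 0.87 ± 0.073 and Uqcrq of the third complex 0.79 ± 0.082. Glycolysis genes were lower for 15 of 29 and higher for 3. Pfkl and Gpi1 fell (-0.72 ± 0.067 and -0.57 ± 0.061), while the hexokinase Hk2 rose 1.28 ± 0.21.

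Genes of protein folding were higher more often than lower, mostly by less than 2-fold. Of 31 genes of the endoplasmic reticulum 18 rose (8 without the block), 13 did not pass and none fell (2 without preparation 4). Of 25 heat shock chaperones 15 rose, 3 fell and 7 did not pass. Hspa5, the main chaperone of the reticulum, stood at 951, 865, 1065 and 1963 CPM without TGF-beta and 1308, 1180, 1276 and 3203 CPM with it. It rose in each preparation, but the spread between preparations was wider than the rise (0.47 ± 0.088, adjusted p = 0.000403; adjusted p = 0.382 without the block). Creb3l2, which encodes a factor for the secretory route, rose 0.95 ± 0.11. The mitochondrial chaperonin Hspd1 rose 1.25 ± 0.087, and the inducible chaperone Hspa1b fell by 0.92 ± 0.18.

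Sterol and fatty acid synthesis genes mostly rose, with 19 of 30 in this list higher and 1 lower. Msmo1, an enzyme of the later steps, stood at 12.9, 11.1, 11.1 and 12.2 CPM without TGF-beta and 25.1, 29.4, 24.9 and 31.9 CPM with it. No value of one group reached the other (1.23 ± 0.090, adjusted p = 3.15e-08). Cyp51, which acts in the same part of the route, rose 1.13 ± 0.081. Adipogenic and lipid handling genes were lower for 16 of 30 and higher for 6. The lipoprotein lipase Lpl fell by 3.31 ± 0.21, and the lipid droplet coat Plin2 rose 1.21 ± 0.076. Lysosomal genes were lower for 22 of 36 and higher for 3 (1 without preparation 1 or 2), mostly by less than 2-fold, with the acid lipase Lipa at -1.05 ± 0.056 and the cathepsin Ctsb at -0.56 ± 0.063.

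Enzymes of aldehyde, retinoid, flavin and steroid metabolism were lower for 18 of 25 and higher for 4 (median -1.35). Aldh1a2, which makes retinoic acid, stood at 740.2, 788, 581 and 501 CPM without TGF-beta and 266, 241, 247 and 208 CPM with it. It fell in each (-1.42 ± 0.076, adjusted p = 1.4e-09). Fmo2 and Aldh3a1 fell further (-5.67 ± 0.31 and -5.53 ± 0.43). Crabp2, which carries retinoic acid to its receptor, stood at 4.13, 8.75, 6.35 and 12.3 CPM without TGF-beta and 179.5, 165, 89.9 and 198 CPM with it. All 4 preparations rose (4.35 ± 0.31, adjusted p = 1.06e-07). Antioxidant genes split, with 9 of 34 higher and 16 lower (9 lower without the block), where 25.2% of all genes rose and 27.3% fell. The extracellular dismutase Sod3 and the transferase Gstm1 fell (-2.71 ± 0.15 and -2.57 ± 0.14), and the peroxiredoxin Prdx6 and the thioredoxin reductase Txnrd1 rose (1.10 ± 0.065 and 1.03 ± 0.079). Of 22 iron genes 4 rose (2 without the block) and 11 fell. The transferrin receptor Tfrc rose 1.79 ± 0.12, and the ferrireductases Steap3 and Steap4 fell (-2.44 ± 0.15 and -4.06 ± 0.24).

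Prostaglandin genes were lower for 10 of 17 (7 without the block) and higher for 3, and the list's summed level was 1732 ± 175 CPM without and 1740 ± 93.9 CPM with TGF-beta. Ptgs2, the inducible cyclooxygenase, stood at 8.33, 10.2, 26.6 and 41.3 CPM without TGF-beta and 359, 332, 519 and 575 CPM with it. The groups lay far apart, and preparations 3 and 4 were highest in both (4.62 ± 0.33, adjusted p = 1.09e-07). The constitutive form Ptgs1 and the receptors Ptger4 and Ptgir fell (-1.23 ± 0.074, -2.44 ± 0.10 and -3.50 ± 0.15). Pla2g4a, which releases the substrate, rose 1.44 ± 0.17. Immediate early genes changed in both directions, with 10 of 26 higher (6 without the block) and 10 lower. Fos fell by 1.56 ± 0.13, and Jun and Egr2 rose (0.85 ± 0.075 and 2.35 ± 0.23).

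Cell cycle genes depended on the preparation. With all 4 preparations 11 of 36 fell, 1 rose and 24 did not pass, where 27.3% of all genes fell and 25.2% rose. The number that fell was 3 without preparation 1 or 2, 6 without preparation 3 and 26 without preparation 4. List medians within preparations 1 to 4 were -0.84, -0.59, -0.58 and 0.27. Without the block 2 fell. Mki67, a mark of cycling cells, stood at 23.2, 20.5, 26.1 and 45.5 CPM without TGF-beta and 11.2, 8.74, 38.9 and 32.4 CPM with it. It was lower with TGF-beta in preparations 1, 2 and 4 and higher in preparation 3 (-0.52 ± 0.30, adjusted p = 0.163). Without preparation 3 the difference passed (-0.93, adjusted p = 0.0246). Cyclin D1 (Ccnd1), which drives entry into the cycle, stood at 2430, 1399, 2102 and 2166 CPM without TGF-beta and 747, 649.6, 912 and 1227 CPM with it. It fell in all 4 (-1.20 ± 0.14, adjusted p = 5.71e-06). The inhibitor of cyclin D kinases Cdkn2b stood at 41.4, 33, 34.7 and 57.9 CPM without TGF-beta and 139.7, 129, 122 and 118 CPM with it. Each preparation rose (1.63 ± 0.18, adjusted p = 7.34e-06). The stress gene Gadd45b and the kinase Plk2 rose (2.22 ± 0.14 and 1.83 ± 0.15).

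Cadherin and junction genes changed in both directions, with 8 of 20 higher and 7 lower (4 lower without the block). At least 2-fold changes were 6 rises and 1 fall. The cadherin gene Cdh6 stood at 0.418, 0.288, 1.24 and 1.18 CPM without TGF-beta and 28.4, 29.9, 50.9 and 31.1 CPM with it. A rise was seen in all 4 preparations (5.57 ± 0.28, adjusted p = 2.98e-09). Its relative Cdh13 fell by 2.87 ± 0.088. Plakoglobin (Jup), which ties cadherins to the cytoskeleton, rose 0.97 ± 0.061, and the desmosome gene Pkp2 rose 3.06 ± 0.30. Of 30 ion channel and calcium handling genes 4 rose and 12 fell, and 12 rose without preparation 4. The stretch-gated channel gene Piezo2 stood at 41.5, 61.7, 68.1 and 24.2 CPM without TGF-beta and 416, 406, 506 and 75.1 CPM with it. The groups did not overlap, and preparation 4 rose least (2.67 ± 0.24, adjusted p = 8.46e-07). The potassium channel subunit Kcne4 and the calcium-binding protein S100a4, also used as a fibroblast marker, fell (-2.59 ± 0.21 and -2.28 ± 0.13). Markers of other cells that could be in such a culture differed in level. The 6 mesothelial markers tested of 13 summed to 6.28 ± 1.80 CPM without and 5.16 ± 2.05 CPM with TGF-beta, and 2 rose and 2 fell. Of 10 Schwann and neuronal markers 5 were tested, and 1 rose and 2 fell, none of which passed without the block. They summed to 298 ± 88.6 CPM without and 301 ± 35.2 CPM with TGF-beta, nearly all of it the tubulin gene Tubb3 (286 ± 89.3 to 295 ± 35.4 CPM), which did not pass (0.091 ± 0.22) but did without preparation 4 (0.33, adjusted p = 0.0163). The adipocyte markers Adipoq, Plin1, Lep, Retn and Cfd had no count, and Fabp4, the 1 tested, fell by 1.24 ± 0.29.

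Several genes with large differences belonged to none of these lists. Olfm2, an olfactomedin gene named in smooth muscle differentiation, had the smallest adjusted p together with Serping1 and Mmp3. It stood at 1.23, 1.03, 1.80 and 1.25 CPM without TGF-beta and 44.2, 39.7, 41.4 and 43.8 CPM with it. With TGF-beta the 4 values were nearly equal (5.04 ± 0.13, adjusted p = 3.63e-12). Add2, which caps actin under the membrane, and Rph3a, a vesicle protein gene, rose 5.03 ± 0.17 and 4.57 ± 0.33. On the other side, Ackr4, a scavenging chemokine receptor, stood at 35, 13.9, 19.5 and 5.04 CPM without TGF-beta and 0.324, 0.264, 0.119 and 0 CPM with it. With TGF-beta it had 20 counts in 4 libraries (-6.65 ± 0.42, adjusted p = 2.61e-08). Ppp1r3c, which directs glycogen synthesis, stood at 92.6, 65.5, 56.5 and 46.4 CPM without TGF-beta and 1.20, 1.17, 1.38 and 0.160 CPM with it. It fell most in preparation 4 (-6.09 ± 0.33, adjusted p = 7.06e-09). The sorting receptor Sorl1 fell by 4.56 ± 0.14.

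**Figure D4:**
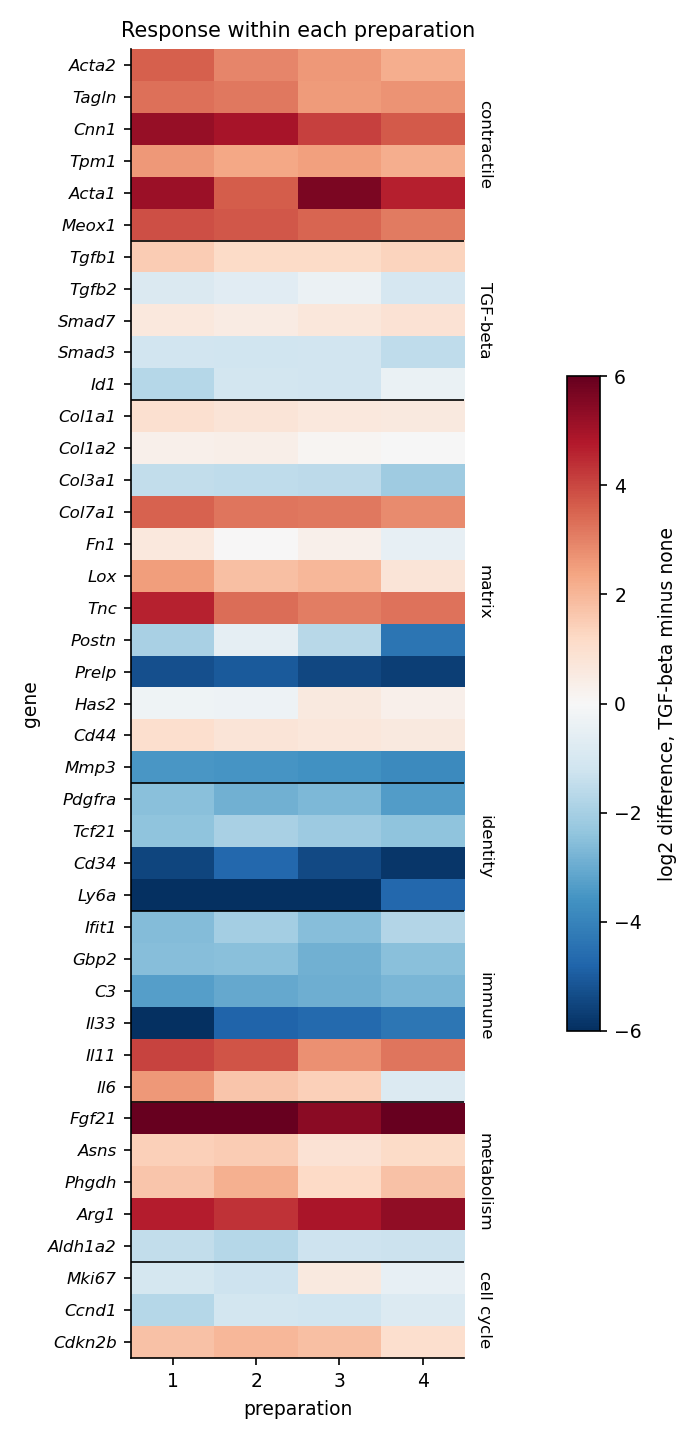
Log2 difference with TGF-beta within each of the 4 preparations of Cre-virus cells for 41 genes named in the text, grouped by role, on a colour scale from -6 (blue) to 6 (red) at which larger values are drawn in the end colours. Most rows keep 1 colour across the 4 columns, and Has2, Fn1, Col1a2, Il6 and Mki67 change sign between preparations.

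Some genes rose or fell by very different amounts in the 4 preparations. The widest ranges among abundant genes that rose were those of Nbeal1, Tnfsf18 and Pik3c2a. Pik3c2a, which encodes a lipid kinase, stood at 23.1, 20.6, 24.4 and 51.8 CPM without TGF-beta and 85.7, 53.2, 128 and 45.4 CPM with it. It was higher with TGF-beta in preparations 1 to 3 and lower in preparation 4 (1.47 ± 0.35, adjusted p = 0.00366). Tnfsf18, a ligand gene of the tumour necrosis factor family, stood at 2.98, 4.34, 10.7 and 5.78 CPM without TGF-beta and 48, 56.2, 49 and 12.4 CPM with it. It rose in all 4, least in preparation 4 (2.80 ± 0.54, adjusted p = 0.000681). Among genes that fell the widest ranges were those of Postn, described above, Ccn5 and Fndc1. Ccn5, a CCN protein without the module that binds heparin, stood at 416, 762, 324 and 87.9 CPM without TGF-beta and 185, 289, 108 and 2.97 CPM with it. It fell much more in preparation 4 than in the others (-2.07 ± 0.54, adjusted p = 0.00563; adjusted p = 0.342 without the block), and without preparation 4 the difference was -1.37. Fndc1 fell by 2.43 ± 0.45, also most in preparation 4 (adjusted p = 0.154 without the block). For Nbeal1, with a rise of 1.22 ± 0.39, the adjusted p was 0.0191, and 0.202 without the block. Its call was also lost without preparation 1, 2 or 3, and without preparation 3 the difference was 0.70.

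The same treatment was also applied to GFP-virus cells, in 8 libraries that share none with the Cre-virus comparison but come from the same 4 preparations. There 3451 genes rose (22.6%) and 4047 fell (26.5%). Of the genes called in Cre-virus cells 81.4% were also called in GFP-virus cells, and of those called in GFP-virus cells 87.2% were called in Cre-virus cells. Of the 6538 called in both, 6535 had the same direction. Across the 15285 genes, which are not independent replicates and share preparations, the differences correlated with Pearson's r = 0.942 and Spearman's rho = 0.889. The difference between the responses was tested as an interaction, and 0 genes (0%) passed at an adjusted p under 0.05 by edgeR's quasi-likelihood test. At an unadjusted p under 0.05 there were 501 genes (3.28%), and DESeq2 gave 0 and 510. Preparation 4 moved that number: it was 1108 without preparation 4 and 1448 without its Cre-virus library with TGF-beta alone, against 287 to 316 without any one of the other preparations and 90 without the block. None passed adjustment in these fits either. The difference was within 0.5 log2 units for 90.2% of genes, and its median SE was 0.18, so differences of that order could not be resolved for a typical gene.

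Among named genes, responses in both kinds of cells were close for most. For Acta2 the log2 difference was 2.82 ± 0.24 in Cre-virus and 2.76 ± 0.24 in GFP-virus cells, for Col1a1 0.73 ± 0.076 and 0.83 ± 0.076, and for Pdgfra -2.85 ± 0.12 and -2.73 ± 0.12. Interferon genes had a median of -1.61 in Cre-virus and -1.27 in GFP-virus cells. In that list 12 of 50 had an unadjusted p under 0.05 for the difference, where 3.28% of all genes did, and none passed after adjustment. Gbp2 fell (-2.62 ± 0.12 and -1.96 ± 0.12) (difference -0.66 ± 0.17, unadjusted p = 0.00144, adjusted p = 1 by edgeR). For Agt the values were -5.15 ± 0.23 and -3.87 ± 0.21 (difference -1.28 ± 0.36, unadjusted p = 0.00282). Neither survives adjustment over all genes, so a different response of these genes was not shown.

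**Figure D5:**
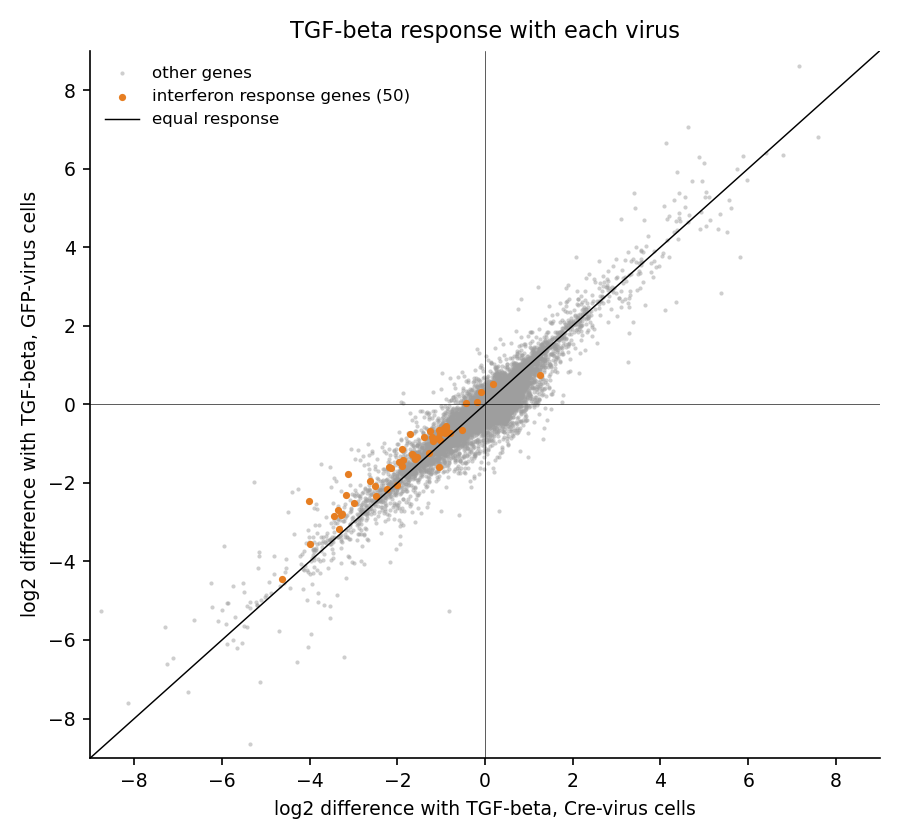
Log2 difference with TGF-beta in Cre-virus cells (x axis) against that in GFP-virus cells (y axis) for the 15285 genes tested, with the line of equal response and with genes of the interferon list in orange. Points follow the line (r = 0.942), and no gene passed the test of the difference.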

How the data were processed

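RNA sequencing counts of 16 libraries were used, 4 for each of 4 groups. The submitters' processing notes name FastQC 0.10.1, HTSeq 0.10.0 and mm39 (GRCm39). No source used here gives the aligner, the annotation or the strand setting. The deposited table holds raw HTSeq counts, which the authors did not normalize, for 55414 Ensembl genes. Symbols came from a GRCm38 gene table for 52081 of them.

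Genes with low counts were removed with edgeR's filterByExpr (minimum count 10, total 15), which left 15285 genes and 99.9% of the counts. One edgeR 4.0.16 quasi-likelihood fit (R 4.3.3, TMM, robust) took all 16 libraries, with 1 mean per group and the preparation as a block. Calls used a Benjamini-Hochberg adjusted p under 0.05 over all genes. SE is the size of the log2 difference divided by the square root of F. Within-preparation differences are of log2 CPM with 2 counts added.

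Same-numbered libraries share a preparation code in their library names. Their deviations from the group means correlated with r of 0.323 to 0.636, against a median of -0.144 and a highest value of 0.292 for the 12 other pairings. No pair of libraries agreed within sampling noise. Male and female preparations came from different animals, but the labels do not say whether the pair of each sex did. The spread behind the p-values is what remains after group means and the preparation block, over all 16 libraries. It may be technical in part. The fit without the block uses the differences between preparations as well.

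Named genes were a fixed set, the 15 highest and 15 lowest called differences, the 10 smallest adjusted p, up to 5 members of each of 52 pathway and 8 marker lists plus up to 2 against the list's majority, and the 3 widest ranges among preparations in each direction. Low genes (under 5 CPM, or 20 CPM for the ranges) and provisional names were left out of the highest, lowest and widest choices. The genes, lists and rules were chosen with earlier results of these data known, so list counts are descriptions. Values of some genes that this rule names are not reported here. Promoter sequences are RefSeq's, in GRCm38.p6, and no coordinate was taken across builds.

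The fit was tested on simulated counts for the TGF-beta comparison with 15090 genes, with 50 changed at each fold. It recovered 14% of genes changed 1.25-fold, 63.3% of those changed 1.5-fold, 83.7% at 2-fold and 95.9% at 4-fold, with 10 false calls. In the real data far more genes were called (52.5%), which makes the adjusted threshold less strict, so these shares need not hold there. Alternatives were no block, the 8 Cre-virus libraries alone, other scalings and filters, a test against a fold of 1.5, DESeq2 1.42.0, and each preparation or library left out.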

Additional observations from a re-analysis of the deposited data

Results flagged for a closer look

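For 79 genes whose 4 values per group are given above, 17 of 158 groups held a library far from the other 3, by Dixon's test at 95%. Chance flags about 1 in 20 groups, and genes of 1 library are not independent. Of the 17, 14 were in preparation 4. In preparation 4 without TGF-beta, C1qa (182 CPM), Cd68 (51.6 CPM), Meox1 (62.5 CPM) and Pik3c2a (51.8 CPM) were the highest and Col1a2 (5364 CPM) the lowest. The 3 other libraries lay between 66.0 and 74.8 CPM for C1qa, between 20.0 and 24.2 CPM for Cd68 and between 9968 and 10510 CPM for Col1a2. In preparation 4 with TGF-beta, C1qa (102 CPM), Cd68 (21.6 CPM), Hspa5 (3203 CPM), Isg15 (202 CPM), Ly6a (8.82 CPM) and Npm1 (876 CPM) were the highest. In the same library Col1a1 (7320 CPM), Fn1 (3161 CPM) and Pdgfra (57.5 CPM) were the lowest. The 3 other libraries with TGF-beta lay between 17070 and 18730 CPM for Col1a1 and between 12890 and 14230 CPM for Fn1. In preparation 3 without TGF-beta the interferon gene Gbp2 (126 CPM) was the highest, and with TGF-beta Cdh6 (50.9 CPM) was. In preparation 1 without TGF-beta Agt (11.1 CPM) was the highest. No named gene moved one way in all 4 preparations of Cre-virus cells and the other way in all 4 of GFP-virus cells.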

How the results depend on the processing

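The numbers of genes that rose and fell (3856 and 4174) stayed within 1.5 times of these under most alternatives. Without the preparation as a replicate block 2134 rose and 2495 fell, all of them among the genes called with it, and against a fold of 1.5 (edgeR's glmTreat) 908 rose and 1750 fell. The 8 Cre-virus libraries alone gave 2825 and 3360. Leaving out a preparation or a single library gave 2892 to 4251 higher and 3396 to 4335 lower. Scaling by library totals alone, chosen after the data were seen, gave 3084 and 4899, so that 38.6% rather than 48% of calls were higher, and it moved the median of all genes from 0.013 to -0.066. No gene called in the main fit was called in the opposite direction under these settings. The number of genes whose response differed between viruses was 0 in each fit that could test it. Without the block, calls of 12 of the named genes were lost, each given beside its gene, and no other named gene's call was. With all libraries kept, DESeq2 added calls for Col1a2 and Il6, and the stricter filter for Il6. Differences that had not passed changed sign for Has1 (-0.080 without the block, and -0.144, -0.061, -0.050, -0.014 and -0.066 within a range of -0.144 to 0.49 when preparations or libraries were left out), Has2 (-0.069, -0.013 and -0.041, range -0.069 to 0.22), Tubb3 (-0.092, range -0.092 to 0.334) and Fn1 (-0.051, range -0.051 to 0.32). Medians near 0 changed sign for the lists of TGF-beta ligands, immediate early genes, ion channels, chondroitin sulfate synthesis, the plasminogen system and Schwann and neuronal markers under 1 or more of these alternatives. The cause of these changes was not tested. Most 1.25-fold changes were missed in the simulated data, where only 50 genes were changed at each fold. That share need not hold for the real data, in which 52.5% of genes were called.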
